A study of Mus musculus with 107 samples.

Results

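Proneural and neurogenic transcription factors start and carry forward the making of neurons. Described here are 9 of them among the 27179 genes counted, chosen by name (Neurog2, Neurod1, Neurod4, Dlx1, Dlx2, Insm1, Hes6, Tbr1 and Eomes) and found by matching their symbols to mouse Entrez identifiers. Neurog2, Neurod1 and Neurod4 are basic helix-loop-helix (bHLH) factors that pair with E-proteins, bind E-boxes and switch on neuronal genes, including Notch ligands such as Dll1 and Dll3, whereas Hes, Hey and Id proteins oppose them. Hes6 is a bHLH factor that counteracts Hes1, and Insm1 is a zinc-finger factor of newly formed neural precursors. Eomes and Tbr1 are T-box factors of cortical glutamatergic precursors and neurons, Dlx1 and Dlx2 are homeobox factors of forebrain GABA neurons, and Eomes also acts in early mesendoderm and in T and NK cells.

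The study asked which cells neural progenitor cells (NPC) become in culture and after grafting into healthy or injured mouse spinal cord. RNA bound to ribosomes that carried HA-tagged Rpl22 (the RiboTag) was pulled down with an anti-HA antibody and sequenced in 107 libraries of 23 groups. Every group had the genotype RiboTag + and the strain C57BL/6. The embryonic stem cells (ESC) came from a single female line in which Sox2-cre had switched on the tag, all NPC came from that source, and host astrocytes came from mice in which the 73.12 Gfap-Cre line drove the tag, so grafts and host cells were tagged by different routes.

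Undifferentiated cells were ESC (4 libraries of 63904283 to 89507835 counts), NPC of passage 5 (NPC P5, 4 libraries, 73481876 to 88367469), of passage 15 (NPC P15, 4 libraries, 44477311 to 79934282) and of passage 30 (NPC P30, 4 libraries, 30473157 to 147764968). Passage 15 cells of derivation 2 (NPC P15 D2) gave 6 libraries of 13473855 to 18085106 counts, and those of derivation 3 (NPC P15 D3) gave 4 of 50673074 to 79578983. Differentiation lasted 4 days with EGF and FGF lowered to 1 ng/ml, alone (SPONT, 62174188 to 76772832 counts) or with 100 ng/ml CNTF (55269375 to 74847119), 100 ng/ml IGF-1 (70773147 to 77968355), or fetal bovine serum (FBS) at 1% (61590713 to 90483031), 5% (65390779 to 82432622), 10% (66833523 to 77518418) or 20% (64455308 to 75915862), or CNTF with 5% FBS (68763231 to 79176236), each in 4 libraries. NPC made ready for grafting were passed through a pipette in media (NPC media, 56526223 to 76542216 counts), in the hydrogel DCH (NPC DCH, 62703026 to 88257346) or in DCH after 4 hours in it (NPC DCH 4 h, 47988245 to 79123582), each in 5 libraries.

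Host astrocytes came from healthy cord (9 libraries, 69708549 to 97184599 counts) and from cord 14 days after a crush injury (host astrocytes SCI 14 d, 5 libraries, 99987229 to 117082323). Grafts were recovered from young adult mice, each group in 5 libraries: at 14 days from uninjured cord (66310464 to 85474297 counts), from crushed cord (graft SCI 14 d, 40506790 to 77335841) and from doubly crushed cord (graft dSCI 14 d, 44385710 to 90830404), and at 5 days from crushed cord (graft SCI 5 d, 12286240 to 15564635). Cells were grafted 2 days after the crush. The series text counts the 5 and 14 days from the injury, whereas other descriptions of the same study count them from grafting, so the start of these times is uncertain. The labels give paired reads for all libraries, but the file headers name a single read file for the NPC P15 D2 and graft SCI 5 d libraries (11 in all) and a pair for the other 96. Even values made up 43.1 to 48.5% of the counts from 1 to 20 in those 11 and 53.1 to 73.8% in the other 96. The 11 are therefore taken as single-read, and read layout and group cannot be told apart in comparisons that cross it. A single unnamed gene took 25.04% of the counts of graft SCI 14 d replicate 5 and 35.04% of those of graft dSCI 14 d replicate 5. The tests of members that used either library are given with and without it, left out alone or together with other graft libraries. Exceptions are the tests against NPC DCH and that of Neurod1 in the injury interaction, which is not given.

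Labels and marker genes matched in the cultures. The ESC gene Pou5f1 had a mean of 908 CPM (counts over the library total, on one scale for all libraries) in ESC and 0.0867 in NPC P15, the progenitor gene Nes 37.04 and 1458 CPM, and the astrocyte gene Gfap rose from 15.2 CPM in NPC P15 to 7880 in SPONT. Grafts and host astrocytes also held RNA of other cell types, with values given beside the results they move with.

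Hes6 was the one member present everywhere, and Insm1 was the next most widespread, while the other 7 were low or patchy. Hes6 had more than 3 counts in 107 of 107 libraries and a mean of at least 1 CPM in 23 of 23 groups, and its mean per length reached 81.6 ± 12.4 FPKM (CPM per kilobase of exon, SD, 4 libraries) in SPONT. Insm1 had more than 3 counts in 95 libraries and reached 1 CPM in 16 groups, with its highest mean, 7.91 ± 0.439 FPKM, in NPC P15. Per length, the highest group mean of Neurod1 was 4.11 FPKM and that of Eomes 1.58 FPKM, both in ESC.

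The remaining 5 members stayed under 1 FPKM in every group mean. Neurog2 reached 0.967 FPKM in uninjured grafts, through 1 library, and had more than 3 counts in 16 of 107 libraries. Dlx2 peaked at 0.825 FPKM and Dlx1 at 0.151 FPKM, both in graft SCI 5 d, with more than 3 counts in 42 and 26 libraries. Tbr1 peaked at 0.0869 FPKM in graft dSCI 14 d and passed 3 counts in 34 libraries. Neurod4, a bHLH factor of the Neurod family, passed 3 counts in 12 libraries, never exceeded 0.327 CPM (20 counts, CNTF replicate 2) and had a top mean of 0.0443 FPKM. A total of 3 counts, used as the floor of detection per library, equalled 0.0203 to 0.244 CPM depending on depth. Such floors cover counting error only.

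**Figure D1:**
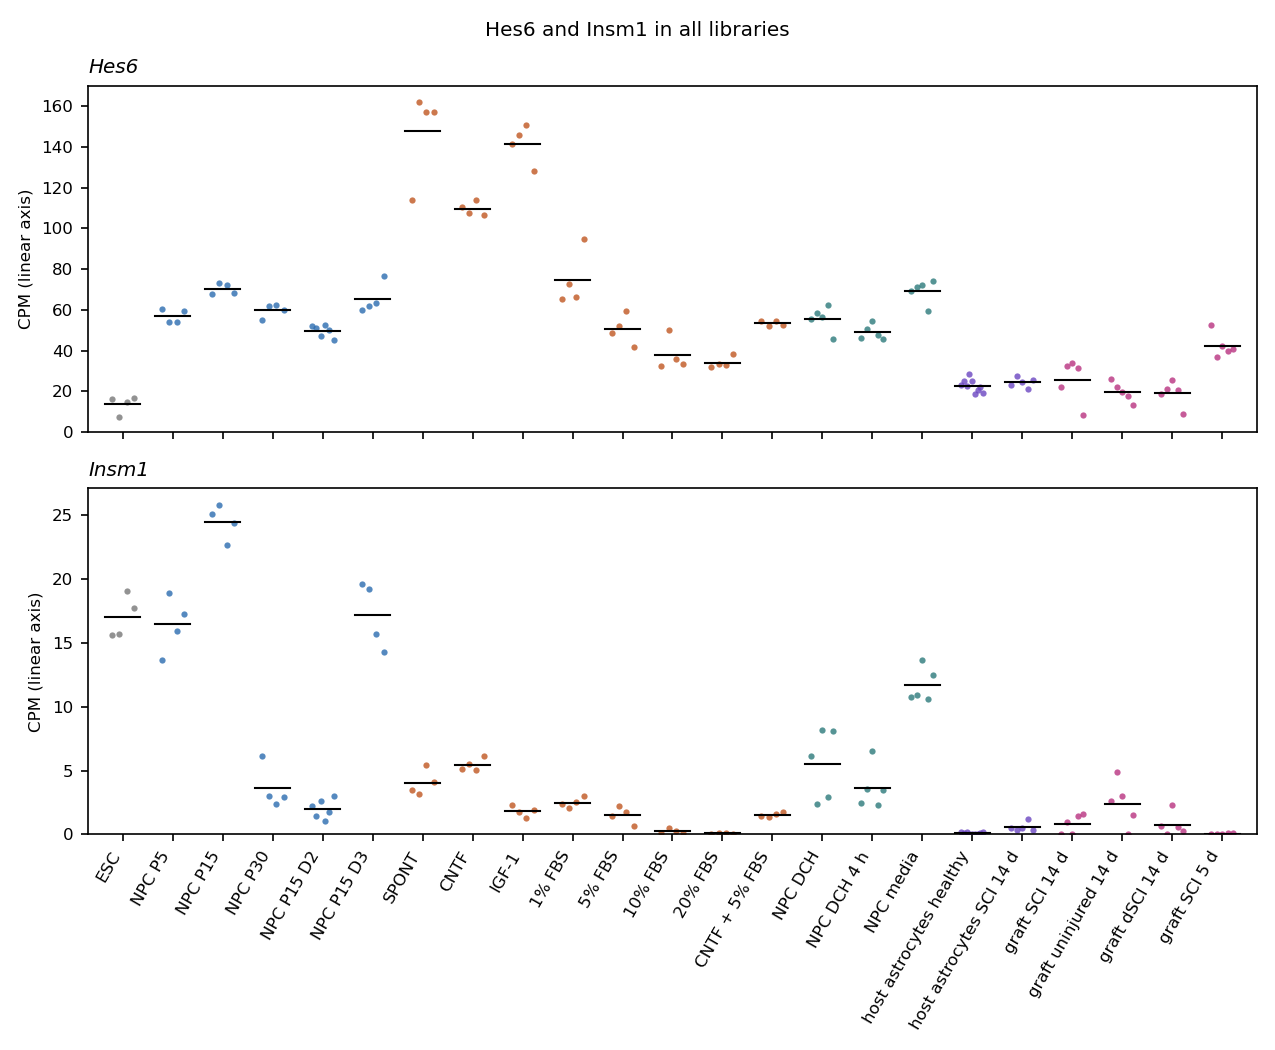
Levels of Hes6 and Insm1 (vertical axes, CPM, linear) in each of the 107 libraries (points) by group (horizontal axis), with group means as lines. Hes6 is highest in SPONT (147.6 CPM) and lowest in ESC (13.7 CPM), and Insm1 is highest in NPC P15 (24.5 CPM) and lies at the floor in all graft SCI 5 d libraries.

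Ordered by mean, Hes6 ran from SPONT (147.6 ± 22.4 CPM) through IGF-1 (141.5 ± 9.65) and CNTF (109.5 ± 3.23) to 1% FBS (74.9 ± 13.7), NPC P15 (70.4 ± 2.76) and NPC media (69.3 ± 5.66), then through the other progenitors, with CNTF and 5% FBS together (53.5 ± 1.45) and 5% FBS (50.5 ± 7.34) among them, to graft SCI 5 d (42.4 ± 5.96), 10% and 20% FBS, and 14-day grafts and host astrocytes, with ESC last (13.7 ± 4.27 CPM). Only 2 pairs of groups next to each other in that order had ranges that did not overlap, so most neighbours did not differ beyond their spread. Insm1 ran from NPC P15 (24.5 ± 1.36 CPM) through NPC P15 D3 (17.2 ± 2.61), ESC (17.03 ± 1.68), NPC P5 (16.5 ± 2.21) and NPC media (11.7 ± 1.34) to 20% FBS (0.0780 ± 0.0250) and graft SCI 5 d (0.0553), and again 2 neighbouring pairs did not overlap. The floor in graft SCI 5 d was 0.193 to 0.244 CPM, so its place below 20% FBS cannot be read. In the order of Neurod1, as in that of Eomes, 1 neighbouring pair did not overlap. The other 5 members lay too near the floor for an order of groups to be read: every library was at the floor in 17 groups for Neurod4, 16 for Neurog2, 9 for Dlx1, 6 for Tbr1 and 5 for Dlx2.

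**Figure D2:**
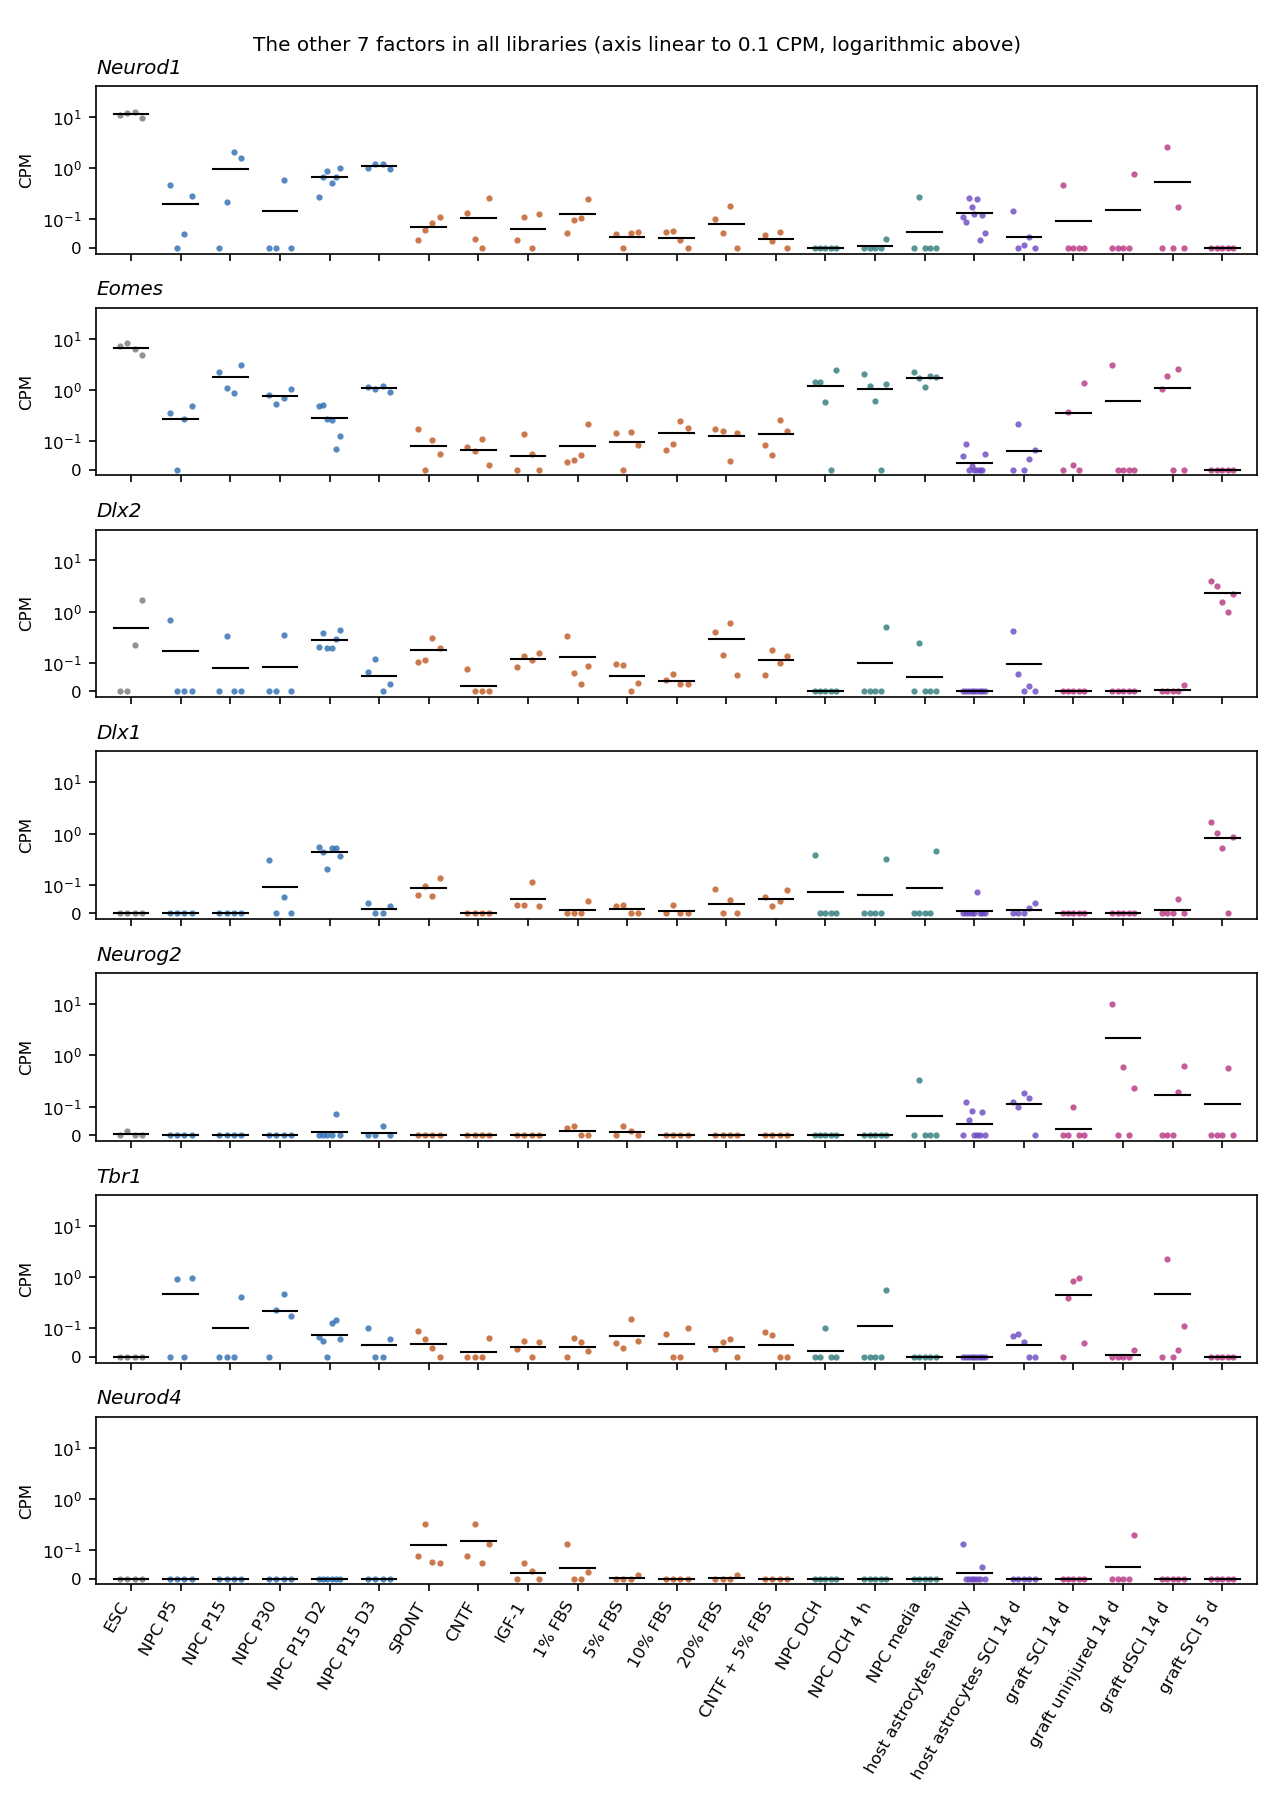
Levels of the other 7 members (vertical axes, CPM, linear to 0.1 and logarithmic above) in each library (points) by group (horizontal axis), with group means as lines. Neurod1 and Eomes stand highest in ESC (11.2 and 6.59 CPM), Dlx2 in graft SCI 5 d (2.36 CPM), and a single uninjured graft library carries Neurog2 (9.93 CPM).

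Over the 23 group means, the genes most like Hes6 among 16864 compared were Zscan21 (Spearman rho 0.927), Phgdh (0.906) and Ppp2ca (0.904). Those most like Insm1 were Sms-ps (0.936), Mbtd1 (0.910) and Trmt10a (0.908). Eomes was followed most closely by Zfp710 (0.891), Zfp532 (0.889) and Mef2d (0.887), and Neurod1 by Phf20 (0.737), 4930579G18Rik (0.737) and Zc3h8 (0.719). No likeness is given for the members whose order could not be read. These values describe 23 groups that share cell sources.

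Of the 9 members, 5 lie on chromosome 2 in GRCm38: Tbr1 (identifier 21375, bases 61802863 to 61814114), Dlx1 (13390, 71528113 to 71533981), Dlx2 (13392, 71543408 to 71546754), Neurod1 (18012, 79452637 to 79456636) and Insm1 (53626, 146221997 to 146225020). Dlx1 and Dlx2 are 9427 bases apart, and since the counting is not stated to use strand, reads of Dlx1 and of its antisense gene Dlx1as cannot be told apart. The others are Hes6 (55927, chromosome 1, 91411483 to 91414038), Neurog2 (11924, chromosome 3, 127632733 to 127635636), Eomes (13813, chromosome 9, 118478186 to 118486132) and Neurod4 (11923, chromosome 10, 130268152 to 130280254).

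RefSeq (GRCm38.p6) listed 10 promoters for 8 of the 9 members. The promoter of Hes6 is shown because it is the most abundant member: the 250 bases before its start, chr1:91414039-91414288 on the minus strand, with the E-box CANNTG, the same on both strands, in capitals.
Hes6: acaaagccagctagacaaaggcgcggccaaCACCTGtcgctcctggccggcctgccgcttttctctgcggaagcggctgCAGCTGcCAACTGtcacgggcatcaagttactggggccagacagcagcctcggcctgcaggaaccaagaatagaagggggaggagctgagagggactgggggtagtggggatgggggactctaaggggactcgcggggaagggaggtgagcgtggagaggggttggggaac
It holds 3 matches to CANNTG, of which 1 is CAGCTG and 0 are CAGATG. Among 32851 promoters of that length, 66.2% held CANNTG at least once, 12.2% held it 3 or more times, 13.0% held CAGCTG and 14.4% CAGATG. A match describes letters only, and a second listed start of Hes6 has 1 CANNTG.

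NPC P15 held more Hes6 and less Neurod1 and Eomes than ESC. Hes6 stood at 16.1, 7.42, 14.9 and 16.6 CPM in the ESC libraries and at 67.7, 73.2, 72.2 and 68.3 CPM in those of NPC P15. Every NPC library was above every ESC library. Neurod1 stood at 11.0, 12.1, 12.3 and 9.43 CPM in ESC and at 0, 0.219, 2.04 and 1.57 CPM in NPC P15, so the groups did not overlap, though the NPC libraries ranged from none to 2.04 CPM. Eomes, at 7.10, 8.20, 6.19 and 4.85 CPM in ESC, stood at 2.23, 1.07, 0.868 and 3.08 CPM in NPC P15, again without overlap. Insm1 was high on both sides, at 15.6, 15.7, 19.1 and 17.8 CPM in ESC and 25.1, 25.8, 22.7 and 24.4 CPM in NPC P15, and the NPC libraries were all above.

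Of the 9 members, 4 passed the filter on low counts in NPC P15 against ESC and all 4 were called (adjusted p under 0.01), in a comparison that called 67.2% of the genes tested. By edgeR, Hes6 rose 4.81-fold (log2 2.27, SE 0.21, adjusted p 1.7e-06) and Insm1 1.35-fold (log2 0.44, SE 0.12, adjusted p 0.0056), while Eomes fell 3.88-fold (log2 -1.95, SE 0.44, adjusted p 0.0017) and Neurod1 12.6-fold (log2 -3.65, SE 0.97, adjusted p 0.0051). The median log2 difference of the 4 was -0.76, against -0.10 for all genes. Neurod1 lost its call without ESC 1, 2 or 3 or NPC P15 2 (adjusted p 0.01 to 0.013), and Insm1 lost it without ESC 1 or 2 or any NPC P15 library (0.01 to 0.023) or with the size factors of DESeq2 (0.01). The rise of Insm1 held against NPC P15 only: with other progenitors in place, its log2 difference from ESC was -0.18 (NPC P5), -2.32 (NPC P30), -3.23 (NPC P15 D2) and -0.09 (NPC P15 D3), with adjusted p of 0.27, 2.4e-05, 4.0e-09 and 0.57.

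The labels do not tie libraries to cultures or animals. The study describes its graft groups as separate mice and its culture experiments as independent replicates, without naming libraries, so these p-values measure the spread between libraries taken as such. In bulk samples such as these, fewer cells holding a member and less of its RNA per cell cannot be told apart. Neurog2, Neurod4, Dlx1, Dlx2 and Tbr1 were too low to test here, with Dlx2 above the floor in ESC replicates 3 and 4 (0.224 and 1.69 CPM) and NPC P15 replicate 2 (0.336 CPM), and Tbr1 at 0 in all ESC libraries.

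The gene lists around the members are short, and most were called at shares near the 67.2% of all genes, so their counts here describe the comparison and are no result about any list. The E-proteins Tcf4 and Tcf12, partners of the bHLH members, rose (2 of 3 tested, median 3.36). Among the Hes, Hey, Id and Rest repressors 4 of 9 tested rose and 2 fell (median 0.94), among 14 early targets of proneural factors 6 rose and 4 fell (0.28), and among 8 immature neuron genes 2 rose and 3 fell (-0.08). The mesendoderm genes, with which Eomes is known to act, had 2 of 10 up and 5 down (median -3.84), led by Nodal (111 to 0.0142 CPM). Of the 10 T and NK cell markers, where Eomes also acts, only Cd3e and Tbx21 passed the filter, through ESC, and both were at 0 in every NPC P15 library, so no change other than a fall could be tested.

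Lineage lists are given on the same terms. Of the Dlx and GABA genes around Dlx1 and Dlx2, 1 of 7 rose (Sp9) and 2 fell (median -1.18), and of the glutamate genes around Eomes and Tbr1 4 of 5 rose and 1 fell (3.06). All 5 ESC markers fell (-13.24, or -10.96 with genes absent from a group set at their bound), 4 of 5 NPC markers rose and 1, Sox2, fell (5.21), and 3 of 6 astrocyte markers rose and 1 fell (1.24). Of the oligodendrocyte lineage genes 6 of 11 rose and 3 fell (4.73), of the mature neuron markers 3 of 8 rose and 2 fell (-0.47), and of the 3 myeloid markers tested Cd68 and Itgam fell, the latter to 0 in every NPC P15 library.

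Insm1 was lower at passage 30 than at passage 5, and Hes6 had no call. Insm1 measured 13.7, 18.9, 16.0 and 17.3 CPM in NPC P5 and 6.12, 3.02, 2.41 and 2.97 CPM in NPC P30. All late-passage libraries were below all early ones, and replicate 1 of NPC P30 stood apart from its group. The change was not a steady one, since NPC P15, between them in passage, had the highest Insm1 of all groups (24.5 ± 1.36 CPM). Of 4 members tested only Insm1 was called, 4.53-fold lower (log2 -2.18, SE 0.24, edgeR adjusted p 2.9e-07), where 35.5% of all genes were called, and without replicate 1 the NPC P30 mean was 2.80 ± 0.336 CPM. Hes6 (log2 0.05, adjusted p 0.64), Eomes (1.45, 0.29) and Tbr1 (-1.16, 0.58) had no call, although the ranges of Eomes did not overlap. The members' median was -0.55 against 0.01 for all genes. The lists around them went both ways: early targets of proneural factors had 0 up and 6 of 11 down (-0.46), immature neuron genes 2 up (Tubb3 and Ncam1) and 2 down of 10 (-0.11), repressors 2 of 10 up (Id2 and Hes1) and 0 down (0.39), and E-proteins 1 of 3 up (0.01). Hes1 lost its call without NPC P5 1, 3 or 4 or NPC P30 1, 3 or 4 (adjusted p 0.01 to 0.042).

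Derivation 2 at passage 15 held less Insm1, Eomes and Hes6 than the first derivation. Insm1 ran from 1.02 to 2.98 CPM in the 6 libraries of NPC P15 D2 (median 2.00) and from 22.7 to 25.8 CPM in NPC P15, far apart. Of 4 members tested in this comparison, where 55.9% of genes were called, 3 fell: Insm1 12.2-fold (log2 -3.61, SE 0.18, edgeR adjusted p 1.5e-12), Eomes 6.23-fold (-2.64, SE 0.51, 1.4e-04) and Hes6 1.42-fold (-0.50, SE 0.06, 2.0e-07). Neurod1 had no call (-0.51, adjusted p 0.59), and the median of the 4 was -1.57 against -0.01. Derivation 2 appeared single-read and NPC P15 paired, so derivation and read layout cannot be told apart.

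In derivation 3 Insm1 alone had a call, for a small fall. Insm1 stood at 19.6, 19.2, 15.7 and 14.3 CPM in NPC P15 D3, each below all 4 NPC P15 libraries. It was the 1 member called of 4 tested, 1.38-fold lower (log2 -0.46, SE 0.11, edgeR adjusted p 0.0035), with 48.04% of genes called and a members' median of -0.26 against 0.02. The call was lost without NPC P15 1 or 2 or NPC P15 D3 3 or 4 (adjusted p 0.011 to 0.013). Hes6 (-0.06, adjusted p 0.6), Eomes (-0.70, 0.2) and Neurod1 (0.24, 0.84) had no call.

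Cells kept for 4 days in low EGF and FGF (SPONT) held more Hes6 and less Insm1 and Eomes than NPC P15, taken here as the starting cells because the labels do not name the passage or derivation used. Hes6 measured 114.1, 162.1, 157.3 and 156.9 CPM in SPONT against 67.7 to 73.2 CPM in NPC P15, so every SPONT library was higher, replicate 1 least. Insm1 measured 3.48, 3.14, 5.41 and 4.11 CPM in SPONT against 22.7 to 25.8 CPM, and Eomes 0.169, 0, 0.103 and 0.0553 CPM against 0.868 to 3.08 CPM. Neither gene overlapped between the groups.

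All 3 members tested in SPONT against NPC P15 were called, among 57.2% of all genes. By edgeR, Hes6 rose 2.30-fold (log2 1.20, SE 0.12, adjusted p 4.0e-06), Insm1 fell 5.56-fold (-2.48, SE 0.17, adjusted p 3.3e-07) and Eomes fell 19.6-fold (-4.29, SE 0.86, adjusted p 0.001). Their median was -2.48 against 0.08. Without SPONT replicate 1, the mean of Hes6 there was 158.7 ± 2.90 CPM. With other progenitors in place of NPC P15, Hes6 was still higher in SPONT, at log2 1.51 (NPC P5), 1.47 (NPC P30), 1.64 (NPC P15 D2) and 1.24 (NPC P15 D3), with adjusted p of 7.7e-07, 6.9e-07, 9.1e-10 and 3.1e-06. The fall of Eomes depended on the passage used as reference, with a log2 difference of -1.59 (adjusted p 0.25) against NPC P5, and Insm1 was no lower than in NPC P30 (0.30, 0.44) and higher than in NPC P15 D2 (1.07, adjusted p 0.0013). Neurod4 and Dlx1, each at 0 in all NPC P15 libraries and above the floor in every SPONT library (0.0553 to 0.322 and 0.0590 to 0.138 CPM), did not pass the filter.

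The lists linked to proneural factors went both ways in SPONT. Of 14 early targets 10 rose and 2, Sox11 and Cbfa2t2, fell (median log2 2.59), Dll3 from 3.38 ± 0.632 to 495.1 ± 68.8 CPM (log2 7.31, edgeR adjusted p 9.1e-11), and 8 of 11 immature neuron genes rose and 0 fell (1.98). Of the 10 repressors 8 rose and 2 fell (2.84), led by Hes5 (1.51 to 160.0 CPM), and of the 3 E-proteins Tcf4 rose (0.60) and Tcf3 fell (-0.76), with a median of -0.40.

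CNTF left the members without a call. Hes6 measured 110.4, 107.4, 113.8 and 106.7 CPM with CNTF, all below the lowest SPONT library (114.1 CPM), and Insm1 measured 5.14, 5.51, 5.07 and 6.11 CPM, overlapping SPONT. Of 2 members tested 0 were called by edgeR, among 19.9% of all genes, and 2 had an unadjusted p under 0.05: Hes6 at log2 -0.41 (SE 0.11, adjusted p 0.014) and Insm1 at 0.46 (SE 0.17, adjusted p 0.056). DESeq2 called 1, Hes6 (-0.41, adjusted p 0.0027), where it called 4340 genes against 2961 by edgeR. Hes6 was called by edgeR without SPONT 1 (-0.52, adjusted p 1.7e-04) or without the filter (-0.42, 0.0096), and Insm1 without SPONT 3 (0.63, 0.0097). The members' median was 0.02 against -0.01, while the repressors had 1 up and 6 of 10 down (-0.58), early targets 1 up and 3 of 15 down (-0.26), immature neuron genes 2 up and 2 of 11 down (0.08) and E-proteins 0 of 3 called.

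IGF-1 lowered Insm1, while Hes6 had no call. Insm1 measured 2.27, 1.76, 1.25 and 1.91 CPM with IGF-1, all below SPONT, and Hes6 141.4, 145.8, 150.6 and 128.1 CPM, inside the SPONT range. Of 2 members tested 1 was called, with 6.55% of all genes called: Insm1 fell 2.17-fold (log2 -1.12, SE 0.21, edgeR adjusted p 0.0076), and Hes6 had no call (-0.01, SE 0.12, adjusted p 0.95). The call of Insm1 was lost without any 1 library other than SPONT 2 (log2 -0.95 to -1.24, adjusted p 0.01 to 0.031). The median was -0.56 against -0.01. Of 15 early targets 6 fell and 1 rose (-0.44), of 11 immature neuron genes 2 fell (-0.11), of 3 E-proteins Tcf4 fell (-0.54), and of 10 repressors Id1, Id2, Id3 and Id4 rose and 0 fell (0.28). Id1 to Id4, and among the early targets Dll1, Sox4, Myt1 and Cdk5r1, lost their calls without SPONT 3 or 4 or any IGF-1 library (adjusted p 0.016 to 0.029). The calls of the other list genes are not given here with a library left out. Among astrocyte and oligodendrocyte genes, Gfap (0.84, from 7880 to 13690 CPM) and S100b (1.06) rose. Slc1a2 (-0.57), Pdgfra (-1.16) and Cspg4 (-0.47) fell, and the others tested had no call. What part these had in the result was not tested.

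Serum lowered Hes6 against SPONT at each of the 4 doses, and Insm1 stood almost at the floor at the highest. Hes6 measured 65.5, 72.6, 66.4 and 94.9 CPM at 1% FBS, 48.5, 52.1, 59.5 and 41.9 at 5%, 32.6, 50.2, 36.1 and 33.4 at 10% and 32.1, 33.3, 33.2 and 38.1 at 20%. Every serum library was below every SPONT library, and neighbouring doses from 5% up overlapped. Insm1 measured 2.38, 2.03, 2.50 and 2.98 CPM at 1%, 1.46, 2.20, 1.74 and 0.656 at 5%, 0.109, 0.524, 0.272 and 0.103 at 10% and 0.0570, 0.105, 0.0931 and 0.0566 at 20% (4, 8, 6 and 4 counts). It too lay below SPONT in every serum library.

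**Figure D3:**
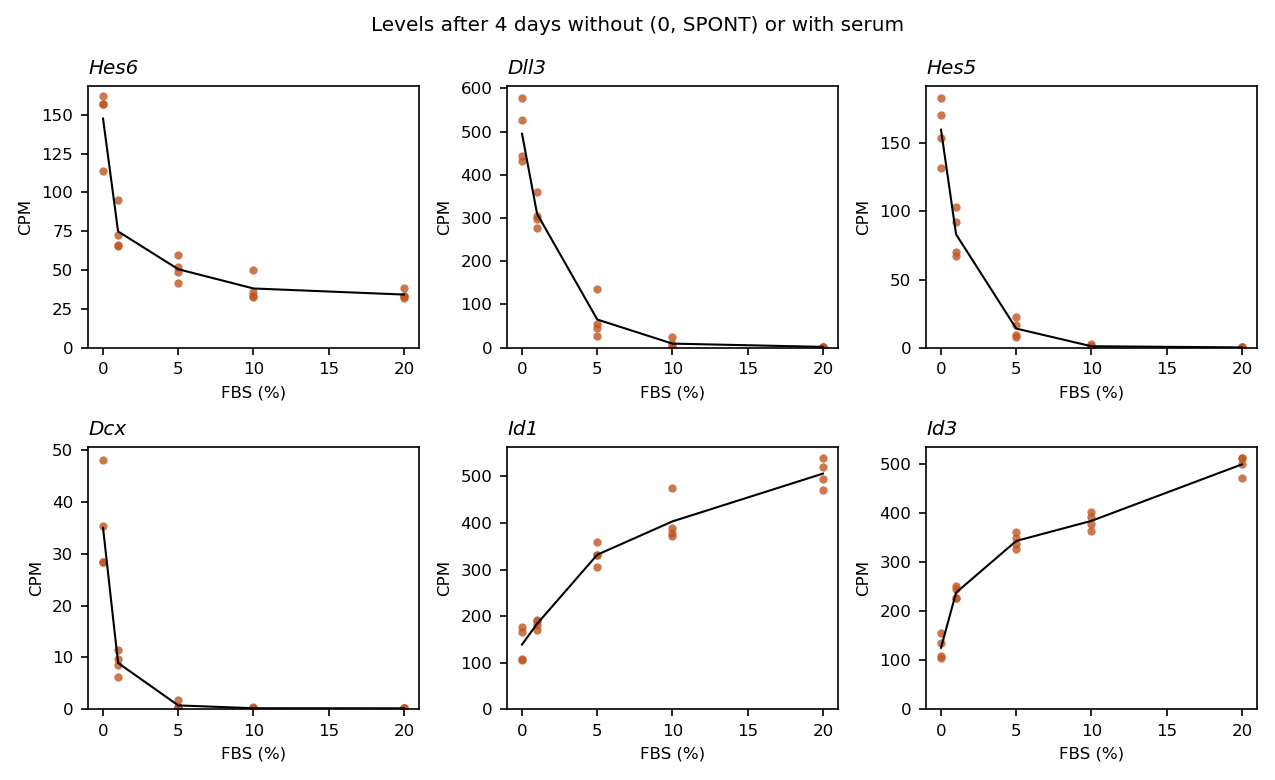
Levels (vertical axes, CPM) of Hes6, Dll3, Hes5, Dcx, Id1 and Id3 against FBS (horizontal axis, % vol/vol, with SPONT as 0), points for libraries and lines through means. Hes6 goes from 147.6 CPM without serum to 34.2 CPM at 20%, and Dll3 from 495.1 to 1.65 CPM.

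At 1% FBS 1 of 2 members tested was called, among 8.78% of genes: Hes6 fell 1.96-fold (log2 -0.97, SE 0.14, edgeR adjusted p 0.001), and Insm1 (-0.69, SE 0.20, adjusted p 0.033) had no call though its ranges did not overlap. DESeq2 called Insm1 as well (adjusted p 0.0048), where it called 2555 genes against 1312 by edgeR. At 5% FBS both members tested were called, among 34.1% of genes, Hes6 2.92-fold lower (-1.55, SE 0.14, adjusted p 1.1e-05) and Insm1 2.66-fold lower (-1.41, SE 0.32, adjusted p 0.0049). The latter lost its call without SPONT 3 or 4 or 5% FBS 1 or 3 (-1.24 to -1.47, adjusted p 0.012 to 0.017). The members' medians were -0.83 at 1% (all genes 0.00) and -1.48 at 5% (all genes -0.01).

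At 10% FBS both members tested were called by edgeR, among 45.01% of genes, Hes6 3.85-fold lower (log2 -1.94, SE 0.17, adjusted p 5.3e-06) and Insm1 16.0-fold lower (-4.00, SE 0.45, adjusted p 3.8e-05). At 20% FBS 2 of 3 tested were called, among 55.5% of genes, Hes6 4.44-fold lower (-2.15, SE 0.12, adjusted p 5.2e-08) and Insm1 51.8-fold lower (-5.70, SE 0.29, adjusted p 2.7e-08), and Dlx2 had no call (0.67, SE 0.64, adjusted p 0.37). The medians were -2.97 and -2.15, against -0.01 and -0.03. The 4 doses share the SPONT libraries, so their results are not independent, and whether doses differ from each other was not tested.

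Early targets of proneural factors also fell against SPONT at each dose: 7 of 15 at 1% FBS (median log2 -0.65), 11 at 5% (-1.89), 13 at 10% (-3.68) and 13 at 20% (-3.87), with 1 up, Srrm4, from 5% on. Immature neuron genes had 3, 7, 10 and 10 of 11 down and 0 up, and E-proteins 2, 2, 3 and 2 of 3 down, while the repressors went both ways, with 3, 5, 5 and 5 of 10 up and 1, 2, 4 and 4 down. At 20% FBS Dll3 fell to 1.65 ± 0.176 CPM (log2 -8.27, edgeR adjusted p 2.0e-11), Hes5 to 0.131 CPM (-10.27, 7.4e-11) and Dcx to 0.148 CPM (-7.93, 1.3e-09), whereas Id3 rose to 498.3 CPM (1.95, 1.7e-07). Of the 11 oligodendrocyte lineage genes tested 9 fell at 20% FBS (-3.71), and Olig1, Olig2, Sox10 and Nkx2-2 fell at each dose. Among astrocyte markers at 20% FBS, S100b (-3.95), Aqp4 (-2.10), Slc1a2 (-1.87), Aldh1l1 (-1.23) and Gfap (-1.02) fell, and Slc1a3 (0.19) had no call. At 1% FBS Gfap (1.26), Slc1a2 (1.17), Aqp4 (1.17) and Aldh1l1 (0.74) rose instead, and S100b and Slc1a3 had no call. What part these markers had in the result was not tested.

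With 5% FBS present, CNTF left the members without a call. Hes6 measured 54.6, 51.95, 54.8 and 52.5 CPM with both, and Insm1 1.47, 1.35, 1.59 and 1.73 CPM, each overlapping 5% FBS alone. Of 3 members tested 0 were called by edgeR and 0 by DESeq2, with 0 at an unadjusted p under 0.05, while 23.3% of all genes were called. Hes6 was at log2 0.01 (adjusted p 0.92), Insm1 at -0.05 (0.91) and Eomes at 0.38 (0.7), with a median of 0.01 against -0.02. Whether CNTF acted differently with serum than without was tested as an interaction, which called 22.9% of all genes and 0 of 3 members, 1 of them at an unadjusted p under 0.05 and 0 by DESeq2. Hes6 was nearest (log2 0.41, SE 0.14, edgeR adjusted p 0.033) and was called without SPONT 1 (0.52, adjusted p 0.0016). The interaction of Insm1 was -0.52 (adjusted p 0.25), and the median 0.41 against -0.05.

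Passing NPC through a pipette in DCH instead of media left Insm1 lower in every library, without a call. Insm1 measured 10.8, 10.9, 13.7, 10.6 and 12.5 CPM in media and 6.17, 2.36, 8.20, 2.95 and 8.07 CPM in DCH, and the groups did not overlap. Of 3 members tested 0 were called by edgeR, among 4.32% of genes, 2 had an unadjusted p under 0.05 and DESeq2 called 1, Insm1 (adjusted p 0.0089). There DESeq2 called 1021 genes against 599 by edgeR. By edgeR, Insm1 was at log2 -1.07 (SE 0.29, adjusted p 0.023), Hes6 at -0.31 (SE 0.09, adjusted p 0.044) and Eomes at -0.54 (adjusted p 0.82), with a median of -0.54 against 0.00. After 4 hours in DCH 0 of 3 members tested were called by edgeR or DESeq2 and 0 had an unadjusted p under 0.05, among 0.320% of genes. There Insm1 was at -0.59 (adjusted p 0.76), Hes6 at -0.18 (0.66) and the median at -0.19 against 0.00.

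Grafts in uninjured cord held less Hes6 than the cells in media, and single libraries carried other members. NPC media was taken as the reference for all grafts, although the labels do not name the graft vehicle. The study describes the hydrogel as the carrier of grafts into injured cord, so values against NPC DCH are given beside. Hes6 measured 69.4, 71.1, 72.2, 59.6 and 73.96 CPM in media and 26.1, 22.3, 19.8, 17.9 and 13.2 CPM in uninjured grafts, with no overlap. Insm1 measured 2.61, 4.89, 3.03, 0 and 1.49 CPM in these grafts, all below media. Neurog2 measured 9.93, 0, 0.603, 0 and 0.226 CPM, and Eomes 3.01 CPM in replicate 1 and 0 in the other 4. Replicate 1 (849 counts) therefore set the mean of Neurog2, 2.15 ± 4.36 CPM, which was 0.207 ± 0.285 CPM without it.

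By edgeR, 1 of 3 members tested was called in uninjured grafts against media, among 53.4% of genes: Hes6 fell 3.39-fold (log2 -1.76, SE 0.17, adjusted p 2.3e-06). Insm1 had no call (-2.24, SE 0.91, adjusted p 0.047) but was called without graft 4 (-1.92, 0.0015). Eomes had no call either (-1.49, adjusted p 0.5), yet was called without graft 1 (adjusted p 3.1e-04). Every graft left was then at the floor for Eomes, so no change other than a fall could be tested. Against NPC DCH, Hes6 was called (-1.47, adjusted p 1.8e-05), and Insm1 (-1.19, 0.33) and Eomes (-0.96, 0.7) were not. The median was -1.76 against 0.14.

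Most neuronal genes went the other way from Hes6 in uninjured grafts, together with markers of other cells. Early targets had 9 of 15 up and 3 down (2.20), immature neuron genes 10 of 11 up and 1 down (5.82) and mature neuron markers 10 of 10 up (9.61, or 9.32 at the bound), while repressors had 5 of 10 up and 3 down (0.20) and E-proteins 2 of 3 down (-1.24). Summed, the mature neuron markers were 32.9, 36.9, 35.1, 39.8 and 36.9 CPM in media and 3671, 2325, 1937, 1737 and 8946 CPM in the grafts, with Snap25 the most abundant (1267 CPM). Myeloid markers had 7 of 7 up and summed to 413.5, 330.6, 158.1, 160.8 and 998.5 CPM, C1qa most abundant (134.7 CPM, or 73.2 without replicate 5, where Csf1r led with 91.4), where media had 0.309, 0.689, 0.885, 1.32 and 0.268 CPM with 4 of 8 markers at the floor. Astrocyte markers summed to 1105 to 1182 CPM in media and 11130 to 17850 CPM in the grafts. Oligodendrocyte lineage genes summed to 5033 to 5205 and 15760 to 28800 CPM. T and NK cell markers summed to 0 to 1.17 CPM in media and 4.53, 2.34, 0, 0.0145 and 1.49 CPM in the grafts. Their part in the result was not tested.

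Grafts in crushed cord at 14 days held less Insm1 and Hes6 than cells in media, without a call against cells in DCH. Hes6 measured 21.97, 32.3, 33.8, 31.6 and 8.54 CPM, and Insm1 0.0259, 0.988, 0.0330, 1.41 and 1.63 CPM, all below every media library. Of 3 members tested 2 were called, among 52.5% of genes: Insm1 fell 10.7-fold (log2 -3.41, SE 0.93, edgeR adjusted p 0.0061) and Hes6 2.17-fold (-1.12, SE 0.26, adjusted p 0.0023), while Eomes had no call (-1.76, adjusted p 0.3). Insm1 lost its call without media 2, 3, 4 or 5 or graft 2 (adjusted p 0.011 to 0.015). Without graft 5 both were called, Insm1 at -3.95 (adjusted p 0.0041) and Hes6 at -0.92 (adjusted p 2.4e-04), with graft means of 0.615 ± 0.699 and 29.9 ± 5.38 CPM, and Eomes was at -3.87 (adjusted p 0.037). With NPC DCH as the reference neither was called (Insm1 -2.34, adjusted p 0.061, and Hes6 -0.82, adjusted p 0.017). The median was -1.76 against 0.16. Mature neuron markers had 9 of 9 up (6.72), summing to 385.2, 472.7, 311.5, 691.0 and 653.8 CPM (Snap25 most, 159.5, with 9 of 9 up also without graft 5), and myeloid markers 7 of 7 up (11.05, or 10.05 at the bound), summing to 378.8, 287.0, 475.4, 439.0 and 1026 CPM (C1qa most, 208.8), with 0 at the floor. Their part in the result was not tested.

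Grafts in crushed cord at 5 days held the most Dlx2 of all groups, with Insm1 at the floor and Eomes at 0. Dlx2 measured 3.91, 3.15, 1.54, 0.987 and 2.19 CPM (48, 47, 24, 14 and 31 counts) against 0, 0.245, 0, 0 and 0 CPM in media, with no overlap. The latter 2 held in all 5 grafts, and Hes6 measured 52.4, 36.7, 42.3, 39.8 and 40.8 CPM, below all media libraries. Dlx1 measured 1.71, 1.00, 0.514, 0 and 0.849 CPM, overlapping media, where replicate 5 had 0.451 CPM.

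Of 5 members tested at 5 days 4 were called by edgeR, among 55.5% of genes. Dlx2 was higher (log2 5.60, SE 1.51, adjusted p 0.0061), by an amount that rests on media replicate 2 (16 counts): without it all media libraries were at 0, and Dlx2 was called (adjusted p 2.0e-04) and at least 53.9-fold higher than the floor. It then passed the filter through the grafts only, so no change other than a rise could be tested. Insm1 was at least 55.1-fold lower (adjusted p 6.0e-07), Eomes at least 8.12-fold lower (2.9e-04) and Hes6 1.52-fold lower (-0.60, SE 0.12, 9.5e-04). Both Insm1 and Eomes lay at the floor in every graft, so they passed the filter through the reference group and no change other than a fall could be tested. Dlx1 had no call (3.22, SE 1.72, adjusted p 0.12), and the median was -0.60 against 0.11. The rise of Dlx2 lost its call without media 3, 4 or 5 or graft 1, 2, 3 or 5 (5.28 to 5.74, adjusted p 0.01 to 0.015), and Hes6 had none against NPC DCH (-0.30, adjusted p 0.072). Against NPC DCH, Dlx2 and Insm1 were called (adjusted p 1.0e-04 and 3.3e-05), while Eomes did not pass the filter. These grafts were shallow and appeared single-read, with media paired, so time, injury and read layout cannot be told apart.

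In the same grafts the Dlx and forebrain GABA lineage genes had 2 up and 2 down of 6 (median log2 2.60). Those up were Gad1, an enzyme that makes GABA (4.88, 7.70, 6.68, 27.4 and 5.38 CPM), and Slc32a1, its vesicular transporter (0.488, 0.937, 0.129, 31.3 and 4.39 CPM), and those down were the homeobox factor Gsx1 and the zinc-finger factor Sp9. Replicate 4 carried Slc32a1, which had no call without it (3.87, adjusted p 0.037) and did not pass the filter without any 1 media library. Early targets had 6 of 14 up and 2 down (0.16), immature neuron genes 5 of 11 up and 1 down (1.52), the repressors 7 of 10 up (2.52) and E-proteins 1 of 3 down (-0.73). Mature neuron markers had 6 of 9 up (6.19) and summed to 121.4, 129.6, 116.2, 1371 and 256.5 CPM (Nefm most, 107.3), and myeloid markers 8 of 8 up (11.24, or 9.93 at the bound), summing to 310.1, 409.4, 282.4, 5802 and 420.5 CPM (C1qa most, 813.9), with 0 of either list at the floor. Replicate 4 set these means: without it Snap25 led the neuron markers (38.9 CPM, Nefm 33.7), C1qa was 162.0 CPM, and 5 of 9 neuron and 8 of 8 myeloid markers were up. Of the T and NK cell markers 1 was tested and 0 called. Their part in the result was not tested.

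Dlx2, above the floor in all graft SCI 5 d libraries, was at 0 in all 5 of graft SCI 14 d. Of 2 members tested 1 was called, among 5.30% of genes: Dlx2 was at least 43.9-fold lower (edgeR adjusted p 0.0029), and Hes6 had no call (log2 -0.58, SE 0.29, adjusted p 0.22) though its ranges did not overlap. Since Dlx2 passed the filter through graft SCI 5 d only, no change other than a fall could be tested for it. Dlx2 lost its call without graft SCI 5 d 1 (adjusted p 0.011) or 2 (0.013). The median was -4.95, or -3.02 at the bound, against 0.00, and read layout appeared to change with time here. Without graft SCI 14 d 5, Dlx2 was still called (adjusted p 0.0033) and Hes6 was at -0.35 (adjusted p 0.28). Markers of glia moved as well. Oligodendrocyte lineage genes had 6 of 11 up and 0 down (median 1.56, or 3 to 8 up with 1 library left out), Olig2 from 69.7 to 272.1 CPM (log2 2.11, adjusted p 0.0011), and summed to 1874, 2626, 2082, 10250 and 9845 CPM at 5 days and 13500, 14050, 11270, 6101 and 7648 CPM at 14 days (Mbp most, 2911 and 4480). Of 6 astrocyte markers 1 rose, Aqp4, from 291.8 to 982.8 CPM (1.91, adjusted p 3.5e-04). Their part in the result was not tested.

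Among 14-day grafts, injury changed the level of no member by a call. Hes6 measured 18.9, 20.98, 25.4, 20.8 and 8.92 CPM in doubly crushed cord, and Insm1 0.670, 0.0220, 2.29, 0.579 and 0.270 CPM, each overlapping the other 14-day grafts. Without replicate 5 the means there were 21.5 ± 2.76 CPM for Hes6 and 0.891 ± 0.977 CPM for Insm1. Tbr1 had 2.25 CPM (204 counts) in graft dSCI 14 d replicate 2 and at most 0.113 in the others, for a mean of 0.477 CPM that was 0.0343 without it, and Neurod1 had 2.55 CPM in that same library. Eomes measured 1.04, 1.88, 0, 2.57 and 0 CPM there, high in 3 libraries and absent from 2. In the same order, the T and NK cell markers, where Eomes also acts, summed to 5.74, 12.15, 9.68, 31.9 and 1.645 CPM. Mature neuron markers summed there to 323.6, 870.7, 894.5, 1819 and 508.1 CPM, and myeloid markers to 877.7, 2563, 1738, 4233 and 641.7 CPM. Their part in the result was not tested.

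Crushed against uninjured cord, 0 of 2 members tested were called by edgeR (4.64% of genes called), with 0 at an unadjusted p under 0.05 and 0 by DESeq2: Hes6 was at log2 0.62 (adjusted p 0.21), Insm1 at -1.19 (0.66) and the median at -0.28 against -0.05. Doubly crushed against uninjured cord, 0 of 3 were called (4.19% of genes), again with 0 at an unadjusted p under 0.05 and 0 by DESeq2: Neurog2 was at -3.03 (adjusted p 0.5), a value set by graft uninjured 14 d 1 (0.39, adjusted p 0.97, without it, and -5.19, 0.3, without graft dSCI 14 d 5), Insm1 at -1.48 (0.62), Hes6 at 0.14 (0.82) and the median at -1.48 against -0.02. Doubly against singly crushed cord, 0 of 3 were called by edgeR (1.83% of genes), 0 at an unadjusted p under 0.05 and 0 by DESeq2: Hes6 was at -0.50 (adjusted p 0.35), Eomes at 1.34 (0.75) and the median at -0.30 against 0.04. These 3 comparisons share groups. With graft SCI 14 d 5, graft dSCI 14 d 5 and graft uninjured 14 d 1 left out together, Hes6 was by edgeR at 0.94 (adjusted p 0.018), 0.36 (0.46) and -0.57 (0.11), and Insm1 at -1.68 (0.55), -1.30 (0.74) and 0.40 (0.92), in the same order. Eomes was then at 3.77 (0.29) in the last. In the first comparison, Id1 rose from 40.8 to 206.2 CPM (log2 2.61, edgeR adjusted p 5.9e-04) and 6 of 10 mature neuron markers fell (-2.57), or 9 without graft SCI 14 d 5.

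In host astrocytes, Insm1 was higher in every library after injury, and neither it nor Hes6 had a call. Insm1 ran from 0 to 0.200 CPM in the 9 healthy libraries (median 0.123) and measured 0.474, 0.360, 0.529, 1.19 and 0.369 CPM after injury, with no overlap. Hes6 ran from 18.8 to 28.6 CPM (median 22.5) and then 23.3, 27.6, 24.5, 21.2 and 25.7 CPM, overlapping. Of 3 members tested 0 were called by edgeR, among 41.1% of genes, 2 had an unadjusted p under 0.05 and DESeq2 called 1, Insm1 (log2 2.41, adjusted p 0.0068). There DESeq2 called 7652 genes against 6933 by edgeR. By edgeR, Insm1 was at 2.38 (SE 0.77, adjusted p 0.015), Neurod1 at -2.004 (SE 0.90, adjusted p 0.072) and Hes6 at -0.08 (adjusted p 0.59), with a median of -0.08 against 0.02. Neurod1 was called without host SCI 1 (-3.61, adjusted p 0.0072). It lay near the floor, with a mean of 0.135 CPM (2 to 20 counts) in healthy cord and 0.0378 CPM (0 to 16 counts) after injury.

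Other genes moved in the host cells around Insm1. Of the 10 repressors 7 fell and 1 rose (median log2 -0.81), Hes5 from 8.65 to 0.741 CPM (-3.71, edgeR adjusted p 2.2e-09), of 15 early targets 5 rose and 2 fell (0.31), of 11 immature neuron genes 3 rose and 2 fell (-0.07), and of 3 E-proteins 1 fell (-0.45). Myeloid markers had 7 of 8 up (3.24), summing to 15.0 to 26.3 CPM in healthy cord (median 18.6) and 186.6, 866.1, 174.8, 151.7 and 377.1 CPM after injury (C1qa most, 196.3, or 119.7 without replicate 2), and mature neuron markers 7 of 10 down (-1.44), summing to 357.0 to 493.5 CPM (median 397.3) and 79.8, 64.5, 145.0, 394.9 and 180.4 CPM (Syp most, 47.2). Without host SCI 1, 4 of 10 neuron markers fell. No marker of either list was at the floor, and their part in the result was not tested.

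Whether injury acted differently in grafts than in host astrocytes was tested as an interaction, in which 16.8% of genes and 0 of 4 members tested were called. By edgeR 3 members had an unadjusted p under 0.05, and DESeq2 called 0. Neurog2 was at log2 -7.74 (SE 2.47, adjusted p 0.02), Insm1 at -3.60 (SE 1.67, adjusted p 0.11), Hes6 at 0.66 (SE 0.30, adjusted p 0.11) and the median at -1.47 against -0.13. Neurog2 was called without graft SCI 14 d 3 (adjusted p 0.0099), the only library of its group with any Neurog2 (6 counts). Every graft SCI 14 d library left was then at 0, so no change in grafts other than a fall could be tested. Hes6 was called without graft SCI 14 d 5 (0.86, adjusted p 0.0056), where Neurog2 was at -7.49 (adjusted p 0.03) and Insm1 at -4.13 (0.08). Leaving out graft SCI 14 d 5, graft dSCI 14 d 5 and graft uninjured 14 d 1 together also gave a call for Hes6 (1.04, adjusted p 9.0e-04). Neurog2 was then at -4.00 (adjusted p 0.2), and at -4.27 (0.17) without graft uninjured 14 d 1 alone.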

How the data were processed

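The deposited values are counts per gene, which the authors made from anti-HA pulldown RNA with Trimmomatic, HISAT2 and featureCounts on mm10. CPM over all 27179 genes, and FPKM over union exon length, were computed here. Each comparison was fitted alone, on its own groups, with edgeR 4.0.16 (quasi-likelihood, TMM, filterByExpr with a minimum count of 10, Benjamini-Hochberg over all genes tested, called at adjusted p under 0.01) in R 4.3.3 with the package data.table (version 1.17.8). DESeq2 1.42.0 served as the alternative. Tables and figures used Python 3.11.15, numpy 2.4.6, pandas 2.3.3, scipy 1.17.1 and matplotlib 3.10.9. There were 24 comparisons, of which 22 had 2 groups and 2 were interactions.

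The members and the 15 lists (133 genes: E-proteins, repressors, early targets, immature and mature neuron, Dlx and GABA, glutamate, mesendoderm, oligodendrocyte, T and NK cell, myeloid, ESC, NPC and astrocyte genes) were chosen with earlier results of these data known. The other list among the 15 is not reported here. Named genes are all members, up to 4 called genes per list with the largest log2 difference among those with a group mean of at least 1 CPM, and, for members reaching 1 CPM (other than Dlx2 and Neurog2, left out after their values were seen to lie near the floor), the 3 genes with the highest Spearman rho over group means of log2(CPM + 0.5). Other genes named were chosen after their values were seen. A fold is that of edgeR's log2 difference, and one against a group at the floor of 3 counts is a bound from mean CPM.

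Replicate numbers were checked for pairing: 1 of 22 comparisons, 5% FBS against SPONT, had every pair correlated over 0.1 (0.119 to 0.311), and a replicate block left its count of called members unchanged. The fit was tested on simulated data made from 2 comparisons: of 100 genes changed 2-fold it recovered 70 in 20% FBS against SPONT and 12 in crushed against uninjured grafts, and of 100 changed 4-fold 96 and 55. Alternatives were other scaling, DESeq2, no filter, a replicate block, each library left out (for the neuron, myeloid, oligodendrocyte and GABA genes, chosen after the data were seen), and other reference groups.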

Additional observations from a re-analysis of the deposited data

Results flagged for a closer look

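Neurog2 in uninjured grafts rested on replicate 1, which had 9.93 CPM (849 counts) where the other 4 libraries had 0 to 0.603 CPM. The gap to the next library was 0.939 of the group's range, the sign of a sample far from the others. Insm1 in NPC P30 was high in replicate 1, at 6.12 CPM (904 counts) against 2.41 to 3.02 CPM (gap 0.837 of the range). Hes6 in SPONT was low in replicate 1, at 114 CPM (8762 counts) against 156.9 to 162.1 CPM (gap 0.891 of the range).

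These 3 came from 50 pairs of member and group tried. The gap that counts is one that chance passes in about 1 in 20 groups. Whether the 3 are technical or biological was not tested.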

How the results depend on the processing

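Under the alternatives, 306 counts of called members stayed within 1.5-fold and 47 moved further, and 1006 log2 differences stayed, 14 grew, 49 shrank and 6 reversed. Size factors of DESeq2 changed 1 count, to 3 of 4 in NPC P15 against ESC. Every count below is of members called, and in each case the cause was not tested.

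The reversals all concern Insm1. Against ESC its log2 difference, 0.44 with NPC P15, was -0.18 with NPC P5, -2.32 with NPC P30, -3.23 with NPC P15 D2 and -0.0875 with NPC P15 D3 (edgeR). In SPONT, -2.48 against NPC P15 became 0.30 against NPC P30 and 1.07 against NPC P15 D2.

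With each library left out in turn, counts ranged from 2 to 4 in NPC P15 against ESC (4 with all libraries), 3 to 4 in SPONT against NPC P15 (3), 3 to 4 in graft SCI 5 d against media (4), and 1 to 2 in 5% FBS against SPONT (2), uninjured graft against media (1) and graft SCI 14 d against media (2). They ranged from 0 to 1 in NPC P15 D3 against NPC P15 (1), IGF-1 against SPONT (1), graft SCI 14 d against graft SCI 5 d (1), CNTF against SPONT (0), host astrocytes (0), the CNTF interaction (0) and the injury interaction (0). In the other 11 comparisons no omission moved the count.

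DESeq2 gave 1 in CNTF against SPONT, 2 in 1% FBS against SPONT, 1 in NPC DCH against media and 1 in host astrocytes. In each of these it also called more of all genes than edgeR did. Without the filter on low counts, SPONT against NPC P15 had 5 (Neurod4 and Dlx1 added), CNTF against SPONT 1, the CNTF interaction 1, NPC P15 D2 against NPC P15 4 (Dlx1 added) and each of 5%, 10% and 20% FBS 3 (Neurod4 added). NPC P5 or NPC P15 D3 in place of NPC P15 gave 3 against ESC, and SPONT had 2 against NPC P5, 2 against NPC P30 and 4 against NPC P15 D3. NPC DCH in place of media gave 0 for graft SCI 14 d and 2 for graft SCI 5 d. Leaving out the 3 doubted graft libraries together, an alternative added after the data were seen, gave 1 in the injury interaction.

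A replicate block gave 2 in NPC P15 against ESC, 0 in IGF-1 against SPONT, 0 in graft SCI 14 d against graft SCI 5 d and 3 in graft SCI 5 d against media, and changed no other count.

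Levels moved with TMM scaling in 10 cases. With the most counted unnamed gene left out of the totals, an alternative added after the data were seen, 3 levels moved by more than their SD, those of Hes6 in CNTF (to 117.5 CPM), IGF-1 (151.7) and CNTF with 5% FBS (55.2). A total of 0 called list genes changed sign under DESeq2 or its size factors. The largest shift of the all-gene median between scalings was 0.117. Depth limits what low members show: 3 counts equal up to 0.244 CPM in the libraries taken as single-read, so absence there is weaker than in paired ones.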
